A study of Mus musculus with 105 samples.

Results

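The input small RNA of dividing mouse embryonic fibroblasts (DMEF) was compared between late and early times of exposure to 5-ethynyluridine (5EU). 5EU is a uridine analogue that cells build into the RNA they make, which can then be captured. The input libraries were made from RNA taken before that capture, so they show the standing level of each microRNA (miRNA). The late group was the 4 libraries taken after 24 and 72 h in 400 µM 5EU, 1 of each time from each of 2 time courses. The early group was the 7 libraries at 0, 1, 2 and 4 h of course 1 and at 1, 2 and 4 h of course 2, which has no 0 h library. All were C57BL/6J embryo-derived fibroblasts at passage 5 to 15, passaged every 2 to 3 days so that they went on dividing. They are 11 of the 105 samples of the series, and their tables hold 1013 mouse miRNAs, of which 471 were abundant enough to be tested. The others had at most 46 reads in any library, and 209 of them had none. Both 8 h libraries were left out of the comparison and serve as an intermediate time.

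A miRNA is cut from a hairpin by Drosha and Dicer, and 1 strand of the resulting duplex, the guide, is loaded into an Argonaute protein, while the other strand, the passenger, is mostly discarded. A guide pairs with its targets through the seed, its bases 2 to 8, so miRNAs with the same seed are grouped into families. The standing level of a miRNA reflects the balance of its production, its decay and its dilution by cell division. In dividing fibroblasts the miR-17-92 and miR-106b-25 clusters are known to promote the cell cycle, miR-15 and miR-16 to restrain it, and the imprinted Dlk1-Dio3 locus to carry one of the largest miRNA clusters of mammals.

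The mature sequences below, from RefSeq (GRCm38.p6), are those on which the comparison turns, with the seed in capitals. The first set rose late and holds 3 pairs that share a seed across different genes.
miR-93-5p: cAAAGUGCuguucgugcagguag
miR-17-5p: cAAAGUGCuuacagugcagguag
miR-25-3p: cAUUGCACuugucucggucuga
miR-92a-3p: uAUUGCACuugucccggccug
miR-15b-5p: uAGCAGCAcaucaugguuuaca
miR-16-5p: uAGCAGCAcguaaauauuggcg
miR-106b-3p: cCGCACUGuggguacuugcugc
miR-30c-5p: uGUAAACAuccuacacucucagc
miR-501-3p: aAUGCACCcgggcaaggauuug
miR-181d-5p: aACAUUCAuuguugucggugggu
miR-214-5p: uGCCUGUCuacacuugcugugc

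The second set fell late. It holds some of the lowered strands, from the Dlk1-Dio3 locus and from elsewhere, and a pair, miR-190a-5p and miR-190b-5p, whose seeds are the same.
miR-376a-3p: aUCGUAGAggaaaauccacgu
miR-136-5p: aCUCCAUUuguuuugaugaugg
miR-665-3p: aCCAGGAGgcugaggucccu
miR-494-3p: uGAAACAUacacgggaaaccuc
miR-21a-3p: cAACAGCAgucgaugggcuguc
miR-135a-5p: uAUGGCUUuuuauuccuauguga
miR-190a-5p: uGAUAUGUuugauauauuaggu
miR-190b-5p: uGAUAUGUuugauauuggguug

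The last set holds sequences that are close relatives or partner strands and yet went in opposite directions. MiR-449c-5p rose and miR-34b-5p fell although they share a seed, and the strands of miR-25 and of miR-34b parted.
miR-449c-5p: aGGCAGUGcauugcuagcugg
miR-34b-5p: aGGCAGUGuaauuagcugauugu
miR-34b-3p: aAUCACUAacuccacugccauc
miR-25-5p: aGGCGGAGacuugggcaauugc

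The libraries carried the marks of fibroblasts. The 2 mRNA libraries of the same line held 5969 and 6565 reads in 1e+06 (counts per 1e+06, CPM) of the collagen gene Col1a1 and 4281 to 4883 CPM of Vim, and the input libraries 17824 to 29546 CPM of miR-199ab-3p. The epithelial miR-200 family summed to 4.43 to 9.73 CPM late and 3.02 to 5.95 CPM early, and the pluripotency clusters miR-290 and miR-302 to 2.99 to 4.58 CPM late and 0.893 to 4.38 CPM early. Depth moved with phase in course 1, where the late libraries held 8355239 and 8234135 miRNA reads against 1247238 to 3829143 in the early ones. In course 2 it was 1252572 and 1747943 late against 912688 to 1324780 early. No parallel culture without 5EU is among these libraries, so hours in 5EU, hours in culture and any passage in between cannot be told apart.

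Strands of the miR-106b-25 cluster, miR-15b and miR-16, several miR-30 and miR-181 members and the X-linked miR-501 rose late. MiRNAs of the imprinted Dlk1-Dio3 locus and single strands such as miR-21a-3p and miR-135a-5p fell. Of the 471 tested miRNAs, 79 passed the test, and their changes were small, with a median of 1.26-fold among those that rose and 0.748-fold among those that fell. Only 2 of the risers and 12 of the fallers moved by over 1.5-fold.

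Of the 471 miRNAs tested, 43 were higher late (9.13%) and 36 lower late (7.64%) at an adjusted p below 0.05. The test was edgeR's quasi-likelihood test with the course as a block and Benjamini-Hochberg adjustment over all 471. The libraries of a course are not stated to be separate cultures, so the p-values measure only the spread between these libraries. All 79 calls had the same sign in both courses, as did 67.3% of all tested miRNAs. The late libraries lay apart from the early ones within both courses for 30 of the 43 and 21 of the 36. Of all tested miRNAs 8.07% lay apart upward and 5.94% downward. The calls were chosen on these same values, so their shared sign and separation are a description and no separate support. Without the course as a block 3 were higher and 0 lower in edgeR. The count rests on single libraries: without the 72 h library of course 1, 20 were higher and 6 lower, and without the 0 h library 22 and 18. Without the 1 h library of course 1 there were 24 and 22, without its 4 h library 26 and 26, without the 1 h library of course 2 27 and 24, and without its 2 h library 30 and 23.

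Levels are given as scaled CPM, the count divided by the library total after edgeR's TMM scaling, times 1e+06. The TMM factors of course 1 were 0.895 and 0.940 late, against 0.991 to 1.007 early. Those of course 2 were 1.020 and 1.028 late, against 1.034 to 1.053 early. Synthetic RNA standards were added per mass of total RNA. They held only 92 to 643 reads per library in course 1, and 31714 to 56657 in course 2. An alternative scaling used these standards. It moved the median miRNA by -0.13 on the log2 scale and left 2 higher (miR-449c-5p and miR-486ab-5p) and 57 lower. All 79 calls kept their direction under it, and 38 of them passed. The same libraries chose the calls, and the smallest called rise (miR-26a-5p, log2 0.17) is larger than that shift. The kept direction is therefore no separate support. None of the miRNA lists below had a strand that passed as higher under the standards. The medians of miR-15/16, the let-7 guides, the p53-linked miRNAs, miR-30, miR-181, miR-199 with miR-214, the serum-responsive miRNAs, the Hox clusters and miR-155 with miR-146 were above 0 as reported and below 0 under the standards. The miRNA reads per standard read did not differ detectably between the phases. They averaged 13876 ± 1514 late and 14390 ± 742 early in course 1 (SD, n = 2 and 4), and 30.9 ± 0.099 late and 31.9 ± 4.43 early in course 2 (SD, n = 2 and 3). The late minus early difference was -0.04 on the log2 scale with an exact two-sided permutation p = 0.627, where 0.0133 is the smallest p this design allows. Thinned to the depth of the shallowest library, 39 miRNAs were higher and 23 lower. As these are bulk samples, fewer cells of one kind and less RNA per cell cannot be told apart.

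**Figure D1:**
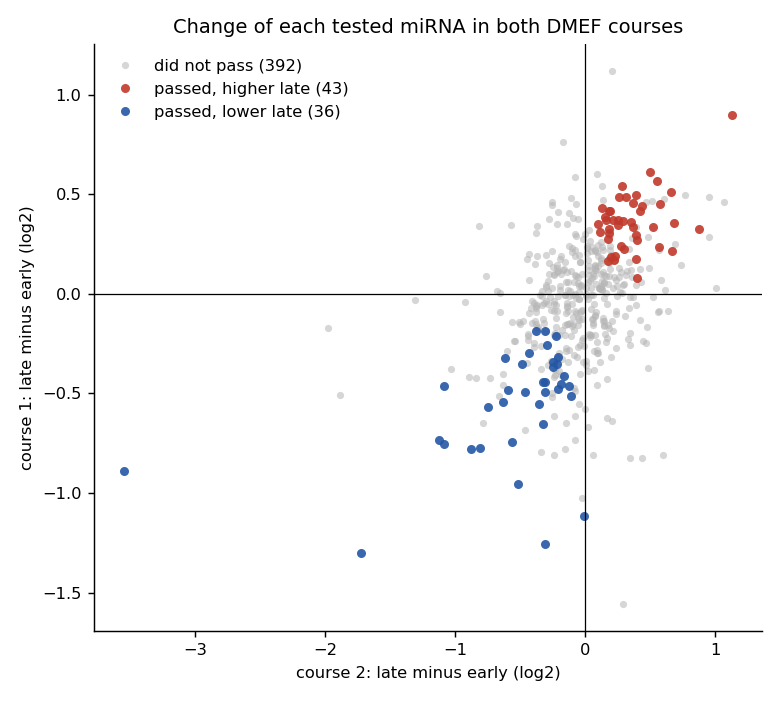
Late minus early log2 difference of each tested miRNA in course 2 (horizontal) and course 1 (vertical), with 1 point per miRNA. The 43 that passed as higher sit at the upper right and the 36 that passed as lower at the lower left, with 1 sign in both courses for all 79, while those that did not pass surround the origin.

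The courses gave different numbers of calls on their own. Course 1 alone called 43 of 519 miRNAs (8.29%), 23 higher and 20 lower. Course 2 alone, with 5 libraries, called 3 of 439 (0.683%): miR-30c-5p was higher, and miR-376a-3p and miR-21a-3p were lower. Of the course 1 calls, 39 were tested in course 2, and 36 of these had the same sign there, against 66.1% over all miRNAs tested in both. Their median log2 difference in course 2, which took no part in choosing them, was 0.23 for the 23 risers and -0.25 for the 16 fallers. A test of the difference between the courses called 0 of 471 miRNAs in edgeR, with 48 at an unadjusted p below 0.05.

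Among the members, 13 passed without any 1 of the 11 libraries, out of 53 that are named here by rule and passed. They were miR-93-5p, miR-25-3p, miR-106b-3p, miR-15b-5p, miR-181d-5p, miR-214-5p, miR-30c-5p, miR-449c-5p, miR-486ab-5p and miR-501-3p, all higher late, and miR-376a-3p, miR-665-3p and miR-135a-5p, all lower late.

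The miR-106b-25 cluster lies on the minus strand of chromosome 5 (chr5:138165332-138165807, GRCm38.p6), in an intron of the replication gene Mcm7. Of its 6 tested strands 4 rose and 1 fell, where 9.13% of all tested miRNAs rose and 7.64% fell. The median log2 difference was 0.28 against -0.03 over all tested miRNAs. Under the standards the median was 0.15 and no strand passed as higher. MiR-93-5p, a guide with the miR-17 seed, had 6567 and 7393 CPM at 24 and 72 h of course 1, against 5216, 5284, 5554 and 5670 CPM at 0, 1, 2 and 4 h. Course 2 held 6471 and 6556 CPM late, against 5032, 4995 and 5290 CPM at 1, 2 and 4 h. Every late library was above every early one in both courses. The difference was 1.28-fold (log2 0.36, SE 0.06, adjusted p = 0.00185). It also passed without the course as a block (adjusted p = 0.0462).

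MiR-25-3p, which shares its seed with miR-92a, had 5929 and 5903 CPM late in course 1, against 4372 to 5008 CPM early. In course 2 it had 6614 and 6152 CPM late, against 5137 to 5303 CPM early. Here too no late library overlapped an early one, and the change was 1.26-fold (log2 0.33, SE 0.06, adjusted p = 0.00216). MiR-106b-3p averaged 330 ± 40.1 CPM late and 264 ± 38.5 CPM early (SD, n = 4 and 7; log2 0.31, adjusted p = 0.00787). Its partner miR-106b-5p did not pass (log2 0.09, adjusted p = 0.319). The summed level of the cluster was 15222 and 16921 CPM late against 13890 to 14450 CPM early in course 1, and 18300 and 18732 CPM late against 15840 to 16223 CPM early in course 2.

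The miR-17-92 cluster on chromosome 14 is the closest relative of that cluster and did not move as one. It had 2 strands higher and 1 lower of 12, where 9.13% of all tested miRNAs were higher and 7.64% lower. Its median was -0.05. MiR-92a-3p averaged 8399 ± 1486 CPM late and 6818 ± 589 CPM early (SD, n = 4 and 7). It stood at 9658 and 9708 CPM at 24 h in courses 1 and 2, but at 6985 and 7246 CPM at 72 h, which lie within the early range of 5940 to 7402 CPM. MiR-17-5p was also highest at 24 h, with 5991 and 6693 CPM, against 5424 and 5071 CPM at 72 h and 4435 to 5250 CPM early. At 72 h it lay above the early libraries of course 1 and below those of course 2. Both miRNAs passed over the late group (log2 0.30, adjusted p = 0.0388, and log2 0.23, adjusted p = 0.0443) and at 24 h. At 72 h their log2 differences were 0.06 and 0.09 and did not pass. The test of 72 h against 24 h did not pass for either. Of the 11 fits that left out 1 library, miR-92a-3p passed in 3 and miR-17-5p in 1 (highest adjusted p = 0.127 and 0.165). MiR-19a-3p, from the same transcript, was lower late, with 2736 ± 596 CPM against 3268 ± 387 CPM early (log2 -0.29, adjusted p = 0.0228). Without the 72 h library of course 1 or the 24 h library of course 2 it no longer passed, with adjusted p up to 0.0869.

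Among families that restrain the cell cycle, the miR-15/16 family had 2 of 9 strands higher and none lower. Of all tested miRNAs 9.13% were higher. The family's median was 0.09 and became -0.06 under the standards. MiR-15b-5p had 8790 and 10232 CPM late against 6881 to 7700 CPM early in course 1, and 10880 and 9483 CPM late against 7910 to 9050 CPM early in course 2. Late libraries were above early ones within each course (1.24-fold, SE 0.07 on the log2 scale, adjusted p = 0.00706). MiR-16-5p, among the most abundant miRNAs here, averaged 28792 ± 5132 CPM late and 23352 ± 1331 CPM early (SD, n = 4 and 7; log2 0.31, adjusted p = 0.0154). Its highest value, 36147 CPM, came from the 72 h library of course 1, without which it did not pass (adjusted p = 0.078). The related cluster of miR-322 and miR-503 on the X chromosome had 2 strands higher and 1 lower of 13. MiR-450a-5p fell to 320 ± 84.8 CPM late, against 416 ± 118 CPM early (log2 -0.32, adjusted p = 0.0134), and also needed that 72 h library (adjusted p = 0.0523 without it).

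**Figure D2:**
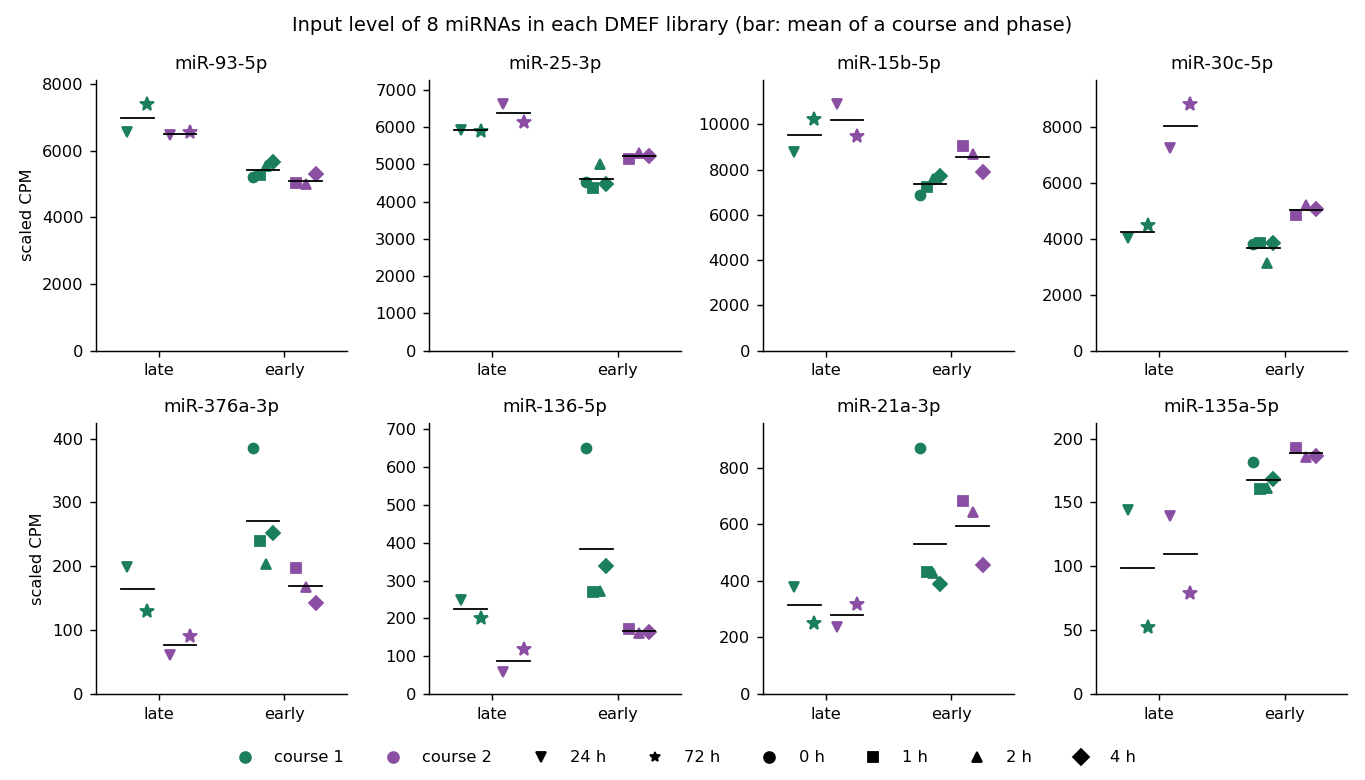
Scaled CPM (vertical, from 0) of 4 risers (top) and 4 fallers (bottom) in every library, late at the left and early at the right, with colours for the course, symbols for the hour and bars for the mean of a course and phase. Within each course the late points of miR-93-5p, miR-25-3p, miR-15b-5p and miR-30c-5p lie above the early ones, and those of the 4 fallers lie below. The 0 h library of course 1 stands high for miR-376a-3p, miR-136-5p and miR-21a-3p.

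Further risers came from families known from differentiation and mesenchyme. The miR-30 family had 4 of 11 strands higher and none lower, where 9.13% of all tested miRNAs were higher. Its median was only 0.02, and -0.11 under the standards. MiR-30c-5p passed in all 11 fits that left out 1 library, miR-30a-3p in 10, miR-30d-5p in 4 and miR-30b-5p in 1. MiR-30c-5p had 4010 and 4477 CPM late against 3133 to 3844 CPM early in course 1, and 7217 and 8791 CPM late against 4835 to 5191 CPM early in course 2. The log2 difference was 0.67 in course 2 and 0.21 in course 1, a gap that did not pass (adjusted p = 0.354), and over both it was 0.43 (SE 0.09, adjusted p = 0.00706). The miR-181 family had 2 of 7 higher, and over all tested miRNAs 9.13% were higher. MiR-181d-5p had 281 and 326 CPM late in course 1 and 297.5 and 405 CPM late in course 2, against 231 to 251 CPM in all early libraries (log2 0.42, SE 0.09, adjusted p = 0.00679). MiR-181c-5p, from the same transcript, had a log2 difference of 0.35 (adjusted p = 0.019) and did not pass without the 24 h library of course 1 (adjusted p = 0.0607).

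MiR-214-5p, the lesser strand of a hairpin of mesenchymal tissue, averaged 1176 ± 303 CPM late and 911 ± 112 CPM early (SD, n = 4 and 7; log2 0.38, SE 0.09, adjusted p = 0.0115). Its partner miR-214-3p did not pass (log2 0.12, adjusted p = 0.345). The miR-99/100 and miR-125 group had 2 of 11 higher and none lower, where 9.13% of all tested miRNAs were higher. MiR-99b-5p averaged 7132 ± 895 CPM late and 6049 ± 450.7 CPM early (log2 0.25, adjusted p = 0.019) and lost its call without the 72 h library of course 1 or the 24 h library of course 2 (adjusted p up to 0.0533). MiR-125b-5p, the second most abundant miRNA, missed the threshold, with 129231 ± 22836 CPM late and 113825 ± 10843 CPM early (log2 0.20, adjusted p = 0.0601). MiR-21a-5p, the most abundant of all, had 165633 ± 24502 CPM late and 167044 ± 5151 CPM early (log2 -0.01, SE 0.07, adjusted p = 0.946).

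MiR-501-3p lies in a cluster of hairpins on the X chromosome. It had 469 and 656 CPM late in course 1 and 594 and 606 CPM late in course 2, against 395 to 465.8 CPM in all early libraries (log2 0.44, SE 0.09, adjusted p = 0.00423). The phases did not overlap. Around it, from Mir500 to Mir532 (chrX:7237695-7248440, minus strand), all 9 tested strands with a sequence in the RefSeq table were above 0 and 3 of them passed, with a median of 0.17. MiR-532-5p has no sequence there and is not among the 9, but it passed too (log2 0.42, adjusted p = 0.0048). That window was chosen after its values were seen. Over all tested miRNAs 9.13% were higher and 256 of 471 were below 0. Under the standards the 9 strands were not all above 0.

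The other members of the 10 largest rises were mostly scarce. MiR-187-3p averaged 30.3 ± 10.8 CPM late and 19.1 ± 6.18 CPM early (SD, n = 4 and 7; log2 0.57, adjusted p = 0.0142), or 0.0614 without the 72 h library of course 1. MiR-218-1-3p averaged 75.0 ± 31.1 CPM late and 52.98 ± 23.2 CPM early (log2 0.45, adjusted p = 0.0175), and miR-503-3p 17.6 ± 10.2 CPM late and 12.3 ± 5.62 CPM early (log2 0.59, adjusted p = 0.0226). Without the 0 h or the 72 h library of course 1 neither passed, with adjusted p up to 0.0976 and 0.183. Late values lay above early ones within each course for all 3 strands. The other named risers were miR-30a-3p, miR-30b-5p, miR-30d-5p, miR-99a-5p, miR-148b-3p, miR-194-5p, miR-335-3p and miR-351-5p, with log2 differences of 0.19 to 0.49. Of these, miR-30a-3p passed in 10 of the 11 fits that left out 1 library and the others in 1 to 5, with adjusted p up to 0.358.

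The largest rise was also in a scarce miRNA. MiR-449c-5p, a member of the miR-34 seed family known from ciliated epithelia, had 114 and 95 reads late in course 1, or 15.2 and 12.3 CPM, against 6.48 to 8.90 CPM early. Course 2 gave 22 and 35 reads late, or 17.2 and 19.5 CPM, against 5.30 to 9.74 CPM early. All 4 late values exceeded all 7 early ones, a 1.97-fold rise (log2 0.97, SE 0.17, adjusted p = 0.00216). MiR-486ab-5p, known from red blood cells and muscle, rose 1.47-fold, with 97.9 to 132.6 CPM late and 72.1 to 88.9 CPM early (log2 0.56, adjusted p = 0.00185). It has no sequence in the table used. Blood cell markers as a list had 0 calls in 2 tested of 8, and summed to 17.1 and 21.5 CPM late against 14.9 to 22.8 CPM early in course 1, and to 265 and 267 CPM late against 186 to 246 CPM early in course 2. MiR-122-5p, known from liver, also passed (log2 0.52, adjusted p = 0.0293), with 24.5 and 33.2 CPM late against 17.8 to 33.2 CPM early in course 1, and 200 and 143.1 CPM late against 99.01 to 136.3 CPM early in course 2. It passed in 4 of the 11 fits that left out 1 library (adjusted p up to 0.101). The summed endothelial and liver markers were 80.9 and 89.6 CPM late against 71.4 to 94.6 CPM early in course 1, and 258 and 225 CPM late against 157 to 193 CPM early in course 2. The part of other cells in these rises was not tested.

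Mirtrons are hairpins cut out by splicing instead of Drosha. Of 6 tested, 2 were higher and none lower, where 9.13% of all tested miRNAs were higher. No list was tested as a set. MiR-3102-3p averaged 427 ± 83.0 CPM late and 319 ± 31.9 CPM early (SD, n = 4 and 7; log2 0.39, adjusted p = 0.0164) and needed the 72 h library of course 1 (adjusted p = 0.0523 without it). MiR-1981-5p had a log2 difference of 0.47 (adjusted p = 0.0397) and passed in 3 of those 11 fits.

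The list with most fallers by number, and with most tested strands, was the Dlk1-Dio3 cluster on chromosome 12. This cluster is expressed from the maternal chromosome and known from growth control in embryo and placenta. Of its 72 tested strands 12 fell and none rose. Over all tested miRNAs 7.64% fell. The log2 difference was below 0 for 62 of the 72, against 256 of the 471 tested, and its median was -0.18 against -0.03. The median was -0.32 under the standards, with 14 lower, and 7 were lower after thinning. It was -0.10 in course 1 and -0.29 in course 2. The summed level of the cluster was 7502 and 7183 CPM at 24 and 72 h of course 1, against 8425 to 8815 CPM early, and 5272 and 5042.5 CPM at 24 and 72 h of course 2, against 6280 to 6481 CPM early. Late sums were below all early sums within each course, and the 8 h sums of 8267 and 5781 CPM lay between.

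Its most lowered strands differ in abundance. MiR-376a-3p had 198.7 and 129 CPM late in course 1, against 386, 240, 204 and 252 CPM at 0, 1, 2 and 4 h. The late values of course 2 were 61.1 and 90.7 CPM, against 197, 167 and 142.8 CPM at 1, 2 and 4 h. The fall of 0.541-fold (log2 -0.89, SE 0.18, adjusted p = 0.00518) passed without each library in turn, and the late values were below the early ones within each course. MiR-136-5p, which is encoded antisense to the retrotransposon-like gene Rtl1, had 249 and 201 CPM late in course 1, against 652, 269, 272 and 339 CPM at 0, 1, 2 and 4 h. Course 2 had 58.7 and 118 CPM late, against 173, 161 and 165 CPM. Its log2 difference was -0.82 (SE 0.22, adjusted p = 0.0228), and it did not pass without the 72 h library of course 1 (adjusted p = 0.0869).

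MiR-665-3p had 65.5 and 70.6 CPM late against 95.2 to 101 CPM early in course 1, and 29.7 and 44.0 CPM late against 50.3 to 72.1 CPM early in course 2. Its fall was 0.673-fold (log2 -0.57, SE 0.11, adjusted p = 0.00335), with no overlap within either course. MiR-494-3p averaged 120 ± 12.3 CPM late and 153.7 ± 14.5 CPM early (SD, n = 4 and 7; log2 -0.37, adjusted p = 0.0196), and it needed the 24 h library of course 1 (adjusted p = 0.0578 without it). The cluster is split in the genome, and position is given for the tested strands with a sequence in the RefSeq table. Between Mir379 and Mir3072 (chr12:109709065-109747949, plus strand) 4 of 47 such strands were above 0, with 8 calls. Between Mir770 and Mir136 (chr12:109563710-109595387, plus strand) 6 of 18 were above 0, with 2 calls. The other 2 of the 12 calls, miR-539-3p (log2 -1.14) and miR-341-3p (log2 -0.40), are not in these counts. Over all tested miRNAs 7.64% were lower and 256 of 471 were below 0, so 2 calls of 18 are near the background.

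**Figure D3:**
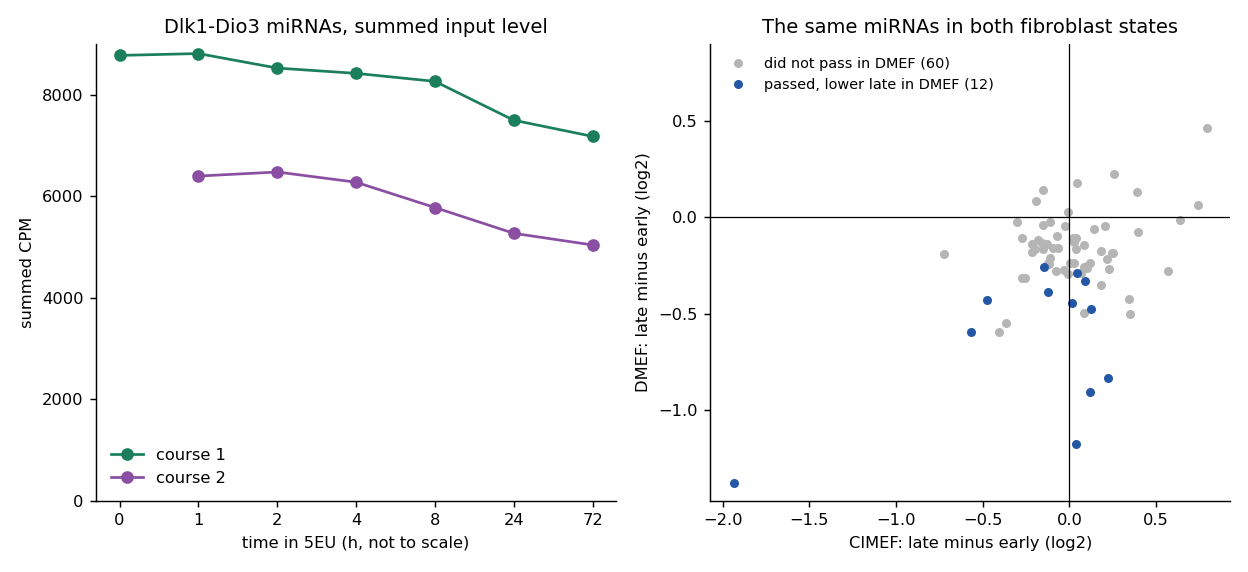
Left, summed CPM of the Dlk1-Dio3 miRNAs (vertical, from 0) by hours in 5EU for both DMEF courses. Right, late minus early log2 difference of its 72 tested strands in CIMEF (horizontal) and DMEF (vertical), both from 1 fit, where most points lie below the horizontal line and on both sides of the vertical one.

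MiR-410-5p of the same cluster had the lowest ratio of all tested miRNAs, 0.395-fold (adjusted p = 0.00335), but at 1.52 ± 0.998 CPM late and 4.26 ± 1.99 CPM early it is below the level set for naming.

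The Sfmbt2 repeats, a rodent cluster with miR-297, miR-466, miR-467 and miR-669, had 4 of 36 lower (2 after thinning) and none higher. With 7.64% lower over all tested miRNAs, that count is near the background. They had a median of -0.10 and 27 below 0. Their sum was 7366 and 7136 CPM late against 7855 to 8421 CPM early in course 1, and 5045 and 4538 CPM late against 5179 to 5643 CPM early in course 2. These miRNAs have near-identical copies, so reads may be split between members. MiR-669ao-3p averaged 1186 ± 314 CPM late and 1423 ± 340 CPM early (log2 -0.22, adjusted p = 0.035) and passed in 7 of the 11 fits that left out 1 library (adjusted p up to 0.0728). MiR-466n-5p, near 13 CPM late and 20 CPM early, had a log2 difference of -0.63 (adjusted p = 0.0228). It did not pass without the 0 h or the 72 h library of course 1 (adjusted p up to 0.0869).

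**Figure D4:**
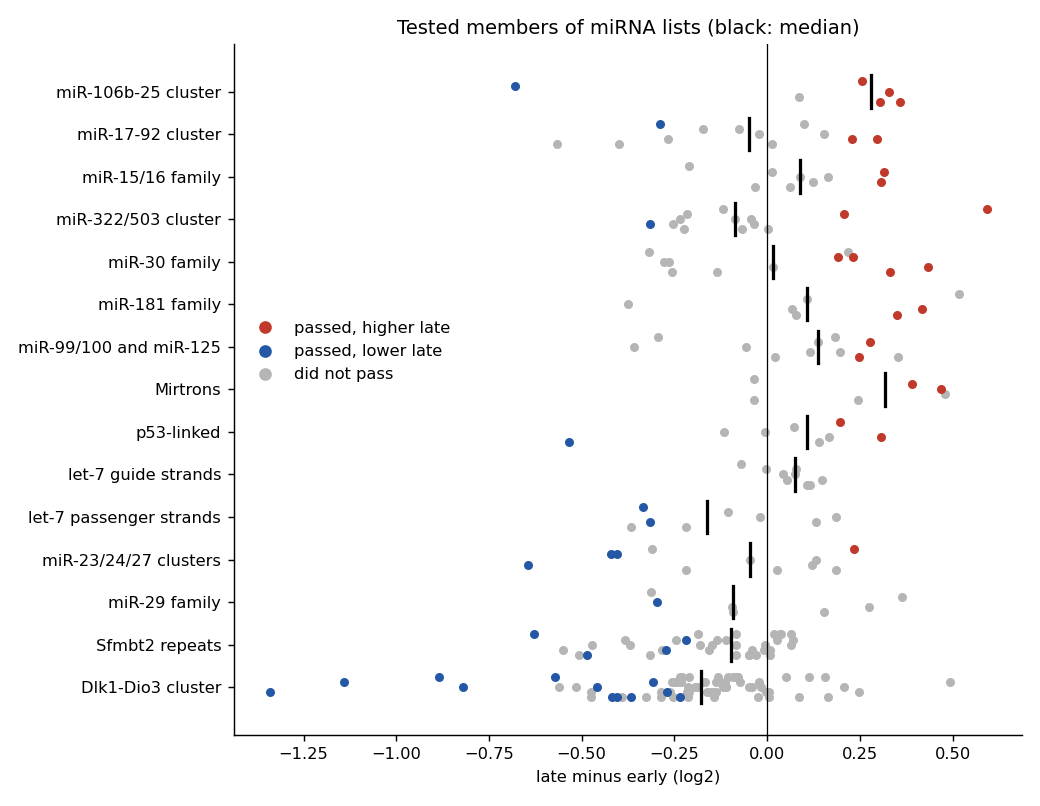
Late minus early log2 difference (horizontal) of every tested member of the miRNA lists (rows), in red where it passed as higher, in blue where it passed as lower and in grey where it did not pass, with the list's median in black. The Dlk1-Dio3 row holds 12 blue and 0 red points, and the miR-106b-25 row 4 red and 1 blue.

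Outside the clusters, miR-21a-3p and miR-135a-5p fell most among the strands above 100 CPM. MiR-21a-3p, the passenger of the abundant oncomiR miR-21a, had 378 and 252 CPM late in course 1, against 871, 430, 426 and 387 CPM at 0, 1, 2 and 4 h. Course 2 held 237 and 317 CPM late, against 680, 642 and 457 CPM at 1, 2 and 4 h. Every late value was below every early one (0.535-fold, log2 -0.90, SE 0.21, adjusted p = 0.0115), though the call was lost without the 72 h library of course 1 (adjusted p = 0.0523). The strand made up 0.146 to 0.211 reads per 100 of miR-21a-5p in the late libraries and 0.233 to 0.494 in the early ones.

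The miR-190 strands share a seed and both fell. MiR-190a-5p had 417.5 and 293.8 CPM late against 446 to 602 CPM early in course 1, and 846 and 1119 CPM late against 1179 to 1294 CPM early in course 2 (log2 -0.50, SE 0.12, adjusted p = 0.0134). MiR-190b-5p had 8.44 ± 1.65 CPM late and 14.4 ± 3.75 CPM early (log2 -0.65, adjusted p = 0.032), and passed in 4 of the 11 fits that left out 1 library (adjusted p up to 0.1). MiR-190a-5p is given because it shares that seed. MiR-1298-5p, also scarce, had 13.2 ± 6.34 CPM late and 22.1 ± 5.0 CPM early (log2 -0.95, SE 0.26, adjusted p = 0.0261), and it did not pass without the 0 h or 72 h library of course 1 or the 2 h library of course 2 (adjusted p up to 0.0868).

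MiR-135a-5p was the only miRNA that passed the test of 72 h against 24 h. It had 52.6 and 79.1 CPM at 72 h in courses 1 and 2 and 143.9 and 139 CPM at 24 h, against 160 to 193 CPM in all early libraries. Its log2 difference from the early group was -1.49 at 72 h (adjusted p = 1.88e-06) and -0.31 at 24 h (adjusted p = 0.122), and the difference between these times passed (log2 -1.18, adjusted p = 2.77e-04).

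Most calls among the let-7 and miR-23/24/27 strands were lower late, where 7.64% of all tested miRNAs were lower. The let-7 guides, which accumulate as cells differentiate, had 0 calls of 9. Of 8 let-7 passengers 2 were lower, let-7b-3p (log2 -0.32, adjusted p = 0.0264, passing in 7 of the 11 fits that left out 1 library, up to 0.0943) and let-7f-1-3p (log2 -0.33, adjusted p = 0.042, passing in 2 of them, up to 0.139). The miR-23/24/27 clusters had 3 lower and 1 higher of 11, and 5 lower under the standards. MiR-23a-5p averaged 58.1 ± 27.6 CPM late and 77.6 ± 8.18 CPM early (log2 -0.65, adjusted p = 0.0273), but its fall was in course 1 (27.7 and 41.7 CPM late against 63.1 to 87.5 CPM early). In course 2 it had 80.7 and 82.4 CPM late and 79.5 to 83.8 CPM early.

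In the same clusters the guide miR-27b-3p rose (log2 0.23, adjusted p = 0.0226) while the passengers miR-27a-5p (log2 -0.41, adjusted p = 0.0228) and miR-23b-5p (log2 -0.42, adjusted p = 0.0294) fell. Without the 72 h library of course 1, miR-27a-5p had an adjusted p of 0.0614, and the other 2 passed in 8 and 7 of the 11 fits that left out 1 library. Over 162 hairpins with both strands tested, 16 of the 162 minor strands fell (9.88%) and 10 rose (6.17%), against 7.64% lower and 9.13% higher over all tested miRNAs. Some hairpins share a major strand, and of the distinct major strands 25 rose (16.2%) and 11 fell (7.14%). Major and minor were set by the 8 h libraries. The minor strands were far less abundant, with a median of 39.6 CPM against 819 CPM, and the 48 minor strands above 100 CPM had 7 higher and 5 lower.

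Strands of 1 hairpin were called in opposite directions in 2 of the 162 hairpins, miR-25 and miR-34b. MiR-25-5p had 84 and 87 reads late in course 1, or 11.2 and 11.2 CPM, against 16.8 to 24.3 CPM early. In course 2 it had 22 and 30 reads late, or 17.2 and 16.7 CPM, against 13.8 to 35.0 CPM early. The phases overlapped in course 2 (log2 -0.68, adjusted p = 0.0228, or 0.0614 without the 72 h library of course 1). Per 100 reads of miR-25-3p there were 0.189 to 0.271 reads of miR-25-5p late and 0.26 to 0.681 early.

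MiR-34b belongs to a family that p53 induces. MiR-34b-5p fell to 835 ± 562 CPM late, against 1141 ± 746 CPM early, and miR-34b-3p rose to 733 ± 240 CPM, against 612 ± 184 CPM (SD, n = 4 and 7). The spread is mostly between courses, which held 478 and 317 CPM of miR-34b-5p late against 366.6 to 747.5 CPM early in course 1, and 981 and 1564 CPM late against 1831 to 1980.97 CPM early in course 2. The log2 differences were -0.54 (adjusted p = 0.035) and 0.20 (adjusted p = 0.0472). They passed in 3 and 0 of the 11 fits that left out 1 library, with adjusted p up to 0.124 and 0.107.

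Of the remaining lists, the miR-29 family had 1 lower of 7, the p53-linked miRNAs 2 higher and 1 lower of 8, the miR-130 and miR-148 families 1 higher of 13, and the serum-responsive miRNAs 1 lower of 8, which was miR-21a-3p. No member passed among 4 of the smooth-muscle miR-143 and miR-145, 4 of miR-221 and miR-222, 5 of the Hox clusters, 4 of miR-155 and miR-146, 2 of the hypoxia-induced miR-210, 2 of miR-7, 2 muscle markers and 4 neural markers. Of the capped, Drosha-independent miRNAs 1 was tested and did not pass. These counts stand beside 9.13% higher and 7.64% lower over all tested miRNAs. None of the miR-106a-363 cluster, the miR-200 family or miR-290 and miR-302 was abundant enough to be tested.

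Fewer miRNAs passed at 24 h than at 72 h, while the median changes of the members were close. At 24 h 15 miRNAs passed against the early group (3.18%), 13 higher and 2 lower, and at 72 h 73 passed (15.5%), 37 higher and 36 lower. At 72 h against 24 h, 1 of 471 passed, with 49 at an unadjusted p below 0.05. The 43 risers had median log2 differences of 0.07 at 8 h, 0.30 at 24 h and 0.36 at 72 h, and the 36 fallers -0.15, -0.44 and -0.44. The times share their early libraries, which helped to choose the members, so these values are a description. At 8 h 0 of 486 miRNAs passed in edgeR (25 at an unadjusted p below 0.05).

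**Figure D5:**
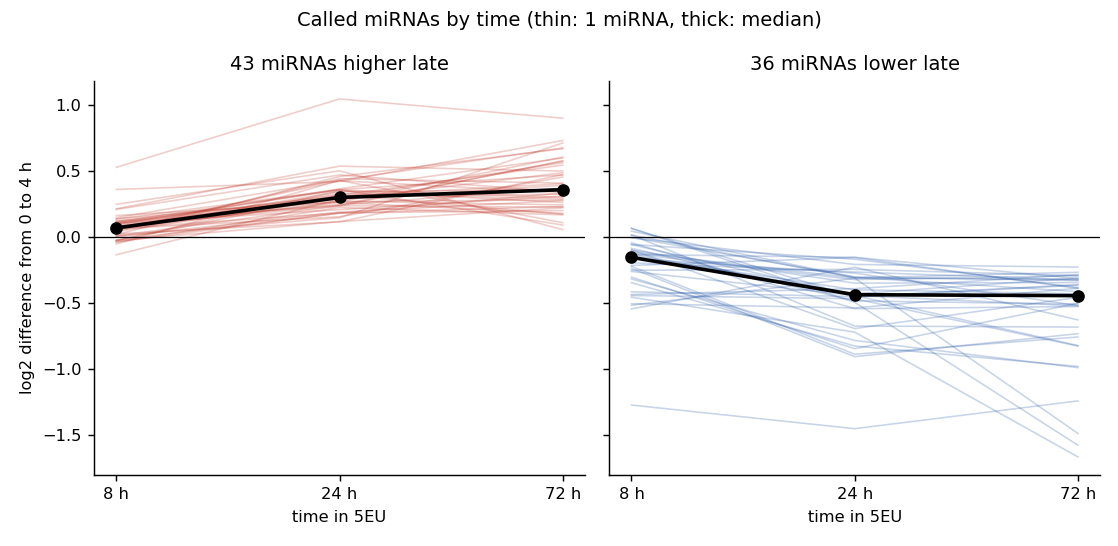
Log2 difference from the early group (vertical) at 8, 24 and 72 h (horizontal) for the 43 risers (left) and 36 fallers (right), with 1 thin line per miRNA and the median as a thick line. The medians are 0.07 and -0.15 at 8 h, where that of all tested miRNAs is -0.02, and reach 0.30 and -0.44 at 24 h.

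The labelled RNA of the same line gives a separate readout of the members. Over the 1, 2 and 4 h 5EU pulldown libraries, each strand's share of the pulled-down reads was divided by its share of the 8 h input. The 34 fallers with at least 10 pulled-down reads had a median log2 ratio of 0.82, the 42 risers one of -0.13, and all 421 tested strands one of 0.13. The ranges overlapped widely, from -2.55 to 5.72 among fallers and from -3.83 to 2.30 among risers. The highest ratios of fallers were those of miR-29b-1-5p (5.72), miR-27a-5p (5.06), miR-410-5p (5.02) and miR-23b-5p (4.63), and the lowest of the risers that of miR-3102-3p (-3.83). Each of these named fallers is the minor strand of its hairpin, and the part of strand type in these ratios was not tested. The ratios are values of single strands with no test. The pulldown table of course 2 may hold 1 sequencing run or the sum of 2.

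Contact-inhibited fibroblasts (CIMEF), which had stopped dividing, were sampled at the same hours and dose in 11 input libraries. There 25 of 564 miRNAs passed (4.43%), 20 higher and 5 lower. Of the DMEF calls, 35 of the 43 risers and 24 of the 36 fallers had the same sign in CIMEF. So did most of all 471 miRNAs tested in DMEF, and the share among the fallers was near that background. The median log2 changes in CIMEF were 0.17 for the risers and -0.13 for the fallers, against 0.02 over the 471 miRNAs. Of the 79 DMEF calls 8 passed in CIMEF too, all with the same sign. A test of the difference between DMEF and CIMEF in late minus early change called 10 of 564 (1.77%), 2 more positive and 8 more negative in DMEF. MiR-376a-3p changed by a log2 of -0.91 in DMEF and 0.12 in CIMEF (difference -1.03, SE 0.24, adjusted p = 0.0312), and miR-136-5p by -0.84 and 0.22 (difference -1.06, adjusted p = 0.0389). Over the 72 strands of Dlk1-Dio3 the median was -0.20 in DMEF and 0.02 in CIMEF in that fit, with 3 calls of the difference. MiR-449c-5p changed by 0.95 in DMEF and -0.17 in CIMEF (difference 1.12, SE 0.23, adjusted p = 0.029).

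Other miRNAs moved in CIMEF and less in DMEF. MiR-20a-5p of the miR-17-92 cluster changed by 0.08 in DMEF and 0.54 in CIMEF (adjusted p = 0.0312 for the difference), and miR-503-5p by -0.08 in DMEF and -1.05 in CIMEF (adjusted p = 0.0312). MiR-93-5p rose in CIMEF too (log2 0.36, adjusted p = 0.00145), and its difference between the states was -0.02 (SE 0.10, adjusted p = 0.965). For miR-25-3p the change in CIMEF was 0.10 and did not pass, but the difference of 0.21 (SE 0.09) did not pass either (adjusted p = 0.216). MiR-20a-5p and miR-503-5p are named after their values were seen.

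Embryonic stem cells (ESC) received 125 µM 5EU and have no 72 h library, so only 24 h can be set beside DMEF, and the dose differs. At 24 h 26 of 650 miRNAs passed in ESC (4%), and the difference between DMEF and ESC was called for 15 of 650 (2.31%), 10 more positive and 5 more negative in DMEF. MiR-34b-5p changed by -0.41 in DMEF and 1.87 in ESC (difference -2.29, adjusted p = 0.00132). MiR-92a-3p changed by 0.63 in DMEF and -0.10 in ESC (adjusted p = 0.00277), miR-17-5p by 0.48 and -0.14 (adjusted p = 0.00277), and miR-15b-5p by 0.42 and -0.13 (adjusted p = 0.0142).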

How the data were processed

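Small RNA was measured in 11 DMEF input libraries, with 11 CIMEF and 9 ESC input libraries for comparison. The authors deposited raw read counts, 1 per mature miRNA and library. The tools named in the submitters' processing notes are cutadapt, STAR 2.4 and HTSeq 0.9.1, with the builds mm10 and GRCm38. Per the labels' protocols the adapters carry random bases, but whether these served to collapse duplicates is not given in the sources used here. Counts were taken as reads, and their precision covers counting error only.

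Counts were tested with edgeR 4.0.16 in R 4.3.3 (TMM scaling, filterByExpr with a minimum count of 10, quasi-likelihood test, Benjamini-Hochberg adjustment, threshold 0.05), with the course as a block. The block was kept because each course is a table of its own and libraries of 1 course deviated together (correlation of same-course deviations 0.763 to 0.846). The pipeline was tested on simulated counts. CIMEF and ESC were fitted together with DMEF for the differences between lines, each course as a block. List sums and marker levels use the unscaled miRNA total. Synthetic standards and size markers were left out of totals.

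The named miRNAs are those that passed with 1 sign in both courses and a mean of at least 10 CPM. They are the 10 largest in each direction, up to 4 per list with the lowest p, and the 5 most abundant of all. The members and the 33 lists were chosen with earlier results of these data known. Mature sequences of RefSeq were found for 371 of 471 tested miRNAs and for 66 of the 79 called, so a check of base composition, which needs 80%, was void and is not given. Alternatives were DESeq2 1.42.0, other scalings, filters, time groups, slopes, sums per course, thinning and leaving out libraries. Thinning and the 8 h term were added after the data were seen.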

Additional observations from a re-analysis of the deposited data

Results flagged for a closer look

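Some values of the named miRNAs stood apart from their group, among 116 groups of libraries examined, of which 2 were marked, and chance marks about 1 in 20. MiR-136-5p had 652 CPM in the 0 h library of course 1, against 161 to 339 CPM in the other early libraries. MiR-93-5p had 7393 CPM in the 72 h library of course 1, against 6471 to 6567 CPM in the other late ones.

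The late change differed between the lines by a test of the difference itself for several named miRNAs. Between DMEF and CIMEF the log2 difference was 1.12 for miR-449c-5p, -1.03 for miR-376a-3p and -1.06 for miR-136-5p. Between DMEF and ESC at 24 h, where the dose also differs, it was 0.55 for miR-15b-5p, -2.29 for miR-34b-5p, 0.73 for miR-92a-3p, 0.62 for miR-17-5p and 0.79 for miR-125b-5p.

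Outside the miRNA rows, the feature named spike_24 had 7 reads in the 1 h library of course 2, against 0 to 3 in the other 10 libraries.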

How the results depend on the processing

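The 43 higher and 36 lower calls stayed within 1.5 times under DESeq2 (46 and 45), median-of-ratios scaling (37 and 39), no filter (48 and 50) and 72 h alone (51 and 47). Other settings moved the counts: 3 higher and 0 lower with no replicate block, 2 and 57 under standard scaling, 15 and 3 with 24 h alone, 22 and 18 without 0 h, 19 and 22 with counts summed per course and phase, 59 lower for the slope on time and 23 lower after thinning. Leaving out 1 library or 1 course gave 1 to 42 higher and 2 to 42 lower. All 79 kept their direction in the fits without a block, under standard scaling and with summed counts. These fits use the libraries that chose the 79, so the kept direction is no separate support. With no filter, the difference between courses called 2 and that between DMEF and CIMEF 26. The late minus early log2 of miRNA reads per standard read was -0.04 as reported, 0.0898 with the standard dme-miR-14 alone, and -0.100 to 0.0111 without 1 library. The log2 difference of miR-24-3p, which did not pass, turned to -0.0101 under standard scaling. That of miR-21a-5p, which did not pass either, turned to 0.0117 with no filter and to 0.0291 with 24 h alone, and ran from -0.183 to 0.145 without 1 library or course. The cause of these shifts was not tested. The shallowest library held 912688 reads, and the 59 miRNAs under 10 CPM had a median SE of 0.25, against 0.07 for the 84 above 1000 CPM.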
